A study of Mus musculus with 4 samples.

Results

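The cytosolic ribosomal protein (RP) genes were taken as the protein-coding genes of the mm9 annotation (GENCODE M1) whose symbol starts with Rpl or Rps and a digit, together with Rplp0, Rplp1, Rplp2 and Rpsa and without the S6 kinase genes and Rps19bp1. The rule gave 137 of 22380 protein-coding genes. They comprised 76 canonical genes for subunits of the cytosolic ribosome, 45 for the large and 31 for the small subunit, 8 paralogues, and 53 copies that carry -ps in their symbol but are typed as protein-coding. None of the canonical genes had a single exon, while all 53 copies did. Rpl41 was not among the members, and Fau and Gnb2l1, which encode ribosomal proteins under other symbols, are described separately.

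Chromatin was prepared from E14 mouse embryonic stem cells (ESCs), and each ChIP-Seq gave 1 library and 1 list of peaks. Bio-Myc came from a single stable clone that expressed Biotin-tagged Myc, tagged at the N-terminus and driven by the ubiquitous EF1α promoter, purified on streptavidin beads. According to the methods, such clones were made by transfecting BirA-ESCs, which carry the biotin ligase, and selecting with Blasticidin. Max, the dimerization partner of Myc, was precipitated with an anti-Max antibody from parental wild type cells. The lists thus differ in the cells used as well as in the purification. A mock ChIP on streptavidin and an anti-IgG ChIP were the controls in peak calling, and their own signal was not analysed here. The sample description gives the mock cells as parental wild type, while the methods give BirA-ESCs without a tagged protein, so whether they carried the biotin ligase is not settled here. Each peak carries a score, 10 times −log10 of the p-value from the peak caller, and the limit of 1e-08 corresponds to a score of 80. With no replicates no difference could be tested, the depth of the libraries is unknown, and the 95% Wilson intervals given with shares cover counting error over genes only.

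Each ribosome carries one copy of nearly every ribosomal protein, so these genes are transcribed together and at a high rate in growing cells. Their mRNAs typically begin with a terminal oligopyrimidine (TOP) tract, through which their translation follows nutrient signals, and many of their introns encode the small nucleolar RNAs (snoRNAs) that guide rRNA modification. Ribosome synthesis is one of the best known programmes under Myc, which binds the E-Box CACGTG as a dimer with Max.

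Nearly every canonical RP gene was occupied. A Bio-Myc peak lay within 1 kb of a transcription start site (TSS) at 74 of the 76 genes (97.4%, 90.9 to 99.3%), against 14.4% of the 22243 other protein-coding genes. Max peaks were found at 71 (93.4%, 85.5 to 97.2%), against 34.7%, and both peaks at the same 71 genes, against 12.4%. A Bio-Myc peak covered a TSS in 74 genes, against 12.7% of the other genes, and a Max peak in 71, against 29.8%. The subunits had similar shares, with Bio-Myc at 44 of 45 large subunit genes and 30 of 31 small subunit genes, and Max at 43 and 28. Canonical genes have a median of 4 annotated TSSs and the other coding genes 2. Among genes with 1 TSS, all 18 canonical genes had both peaks. Of 9782 other genes with 1 TSS, 8.56% had Bio-Myc and 22.6% had Max.

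The copies named -ps were seldom occupied, and the paralogues lay between them and the canonical genes, with Bio-Myc at 6 and Max at 5 of 8. Over all 137 members, 81 had a Bio-Myc peak (59.1%, 50.8 to 67.0%) and 77 a Max peak (56.2%, 47.8 to 64.2%). Of the 53 copies, 1 had peaks of both lists (1.89%, 0.334 to 9.94%). This was Rpl30-ps6, with a Bio-Myc score of 200 and a Max score of 220, where the peaks ended upstream of the copy and did not cover its TSS. None of 99 RP pseudogenes that are not typed as protein-coding had a peak of either list, which allows a share of up to 3.03% by a limit of 3 counts, or 3.74% by the Wilson interval. Whether the unique mapping of reads leaves fewer reads at such copies was not tested. The genes for mitochondrial ribosomal proteins, which form the ribosome of the organelle, had a Bio-Myc peak at 33 of 77 (42.9%, 32.4 to 54.0%) and a Max peak at 56 (72.7%, 61.9 to 81.4%). They lay above the other coding genes in both lists, and below the canonical RP genes with intervals that do not overlap.

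**Figure D1:**
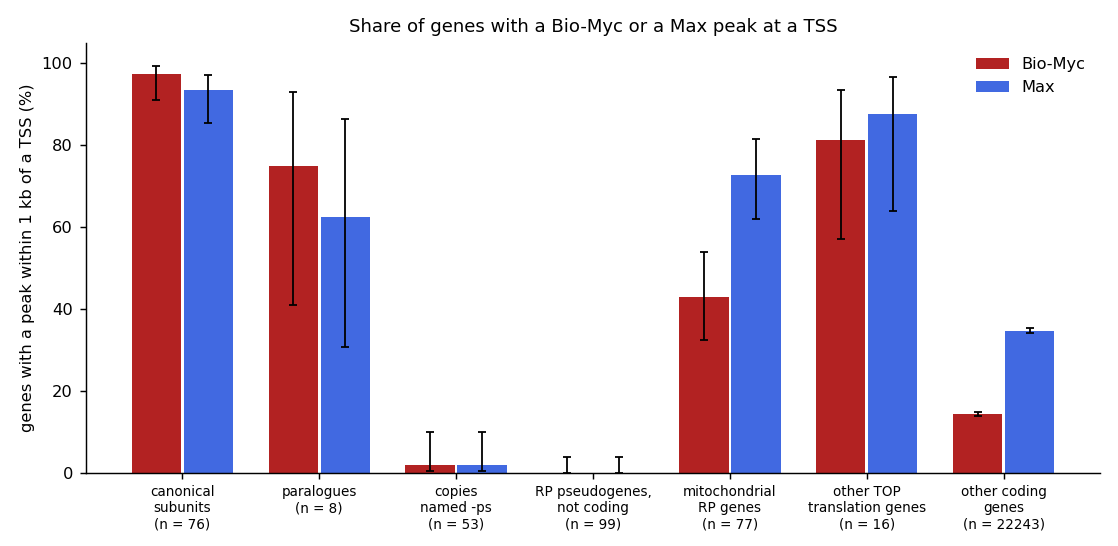
Share of genes with a Bio-Myc (red) or a Max peak (blue) within 1 kb of a TSS, in percent, for the classes of RP genes and the sets they are compared with. Bars start at 0, error bars are 95% Wilson intervals, and n is the number of genes. The canonical genes stand at 97.4% and 93.4%, the copies named -ps at 1.89%, and the other coding genes at 14.4% and 34.7%.

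Every Max-bound member was also Bio-Myc-bound. This held for all 71 canonical genes with Max, and for all 77 members with Max, against 35.7% of the other Max-bound coding genes and 51.8% of the Max-bound mitochondrial RP genes. The share among other genes depended on the Max score. It was 20.9% of 3855 genes with a Max score below their median of 194, 45.0% of 2691 from there to the canonical median of 427, and 63.4% (60.6 to 66.2%) of 1165 at or above it. The canonical genes numbered 7, 28 and 36 in these ranges of score, and each had a Bio-Myc peak. Only 2 canonical genes lacked Bio-Myc, and both also lacked Max, so this restates the Bio-Myc share of the canonical genes. Max without Bio-Myc was found at none of the 137 members and at 4956 other coding genes, which include the ribosomal protein gene Fau.

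Before the single genes, the start regions of the 3 canonical genes with the highest summed rank of both scores are shown, from 100 bases before the outermost annotated TSS to the end of the first 20 transcribed bases, which are in capitals. They lie in mm9 on the plus strand, at chr7:25669290-25669409 for Rps19, chr17:28465316-28465435 for Rpl10a and chr16:33056439-33056558 for Rpl35a.
Rps19: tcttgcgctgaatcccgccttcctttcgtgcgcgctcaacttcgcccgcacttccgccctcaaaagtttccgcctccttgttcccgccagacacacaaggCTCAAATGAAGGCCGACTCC
Rpl10a: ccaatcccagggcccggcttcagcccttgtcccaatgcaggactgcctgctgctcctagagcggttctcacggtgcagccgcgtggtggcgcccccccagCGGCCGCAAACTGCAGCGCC
Rpl35a: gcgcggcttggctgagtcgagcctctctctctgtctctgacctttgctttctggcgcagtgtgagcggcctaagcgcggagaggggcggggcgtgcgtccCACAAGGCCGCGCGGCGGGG
None of these 3 stretches holds a CACGTG. The E-Boxes of Rps19 and Rpl10a lay further downstream, and Rpl35a had none under its Bio-Myc peak.

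The peaks at canonical RP genes were also strong within their lists. The strongest Bio-Myc peak of a bound canonical gene had a median score of 340, against 142 at the 3194 other bound coding genes. The median canonical gene ranked at percentile 89.3 of those genes, and 67 of the 74 lay in the upper 50% of their scores, 58 in the upper 25% and 34 in the upper 10%. For Max, the median was 427 against 194, at percentile 84.9, with 64 of 71 genes in the upper 50%, 47 in the upper 25% and 23 in the upper 10%. A score of 200 or more, a p-value of 1e-20 or lower, was reached by 59 canonical genes in the Bio-Myc list, against 4.17% of the other coding genes, and by 64 in the Max list, against 16.8%. Mitochondrial RP genes had medians of 143 and 171, close to the other coding genes in the Bio-Myc list and below them in the Max list. The RP genes did not head the Max list. Among the 100 highest-scoring coding promoters, 9 were members in the Bio-Myc list, where members made up 2.47% of the bound genes, and 1 in the Max list, where they made up 0.989%.

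**Figure D2:**
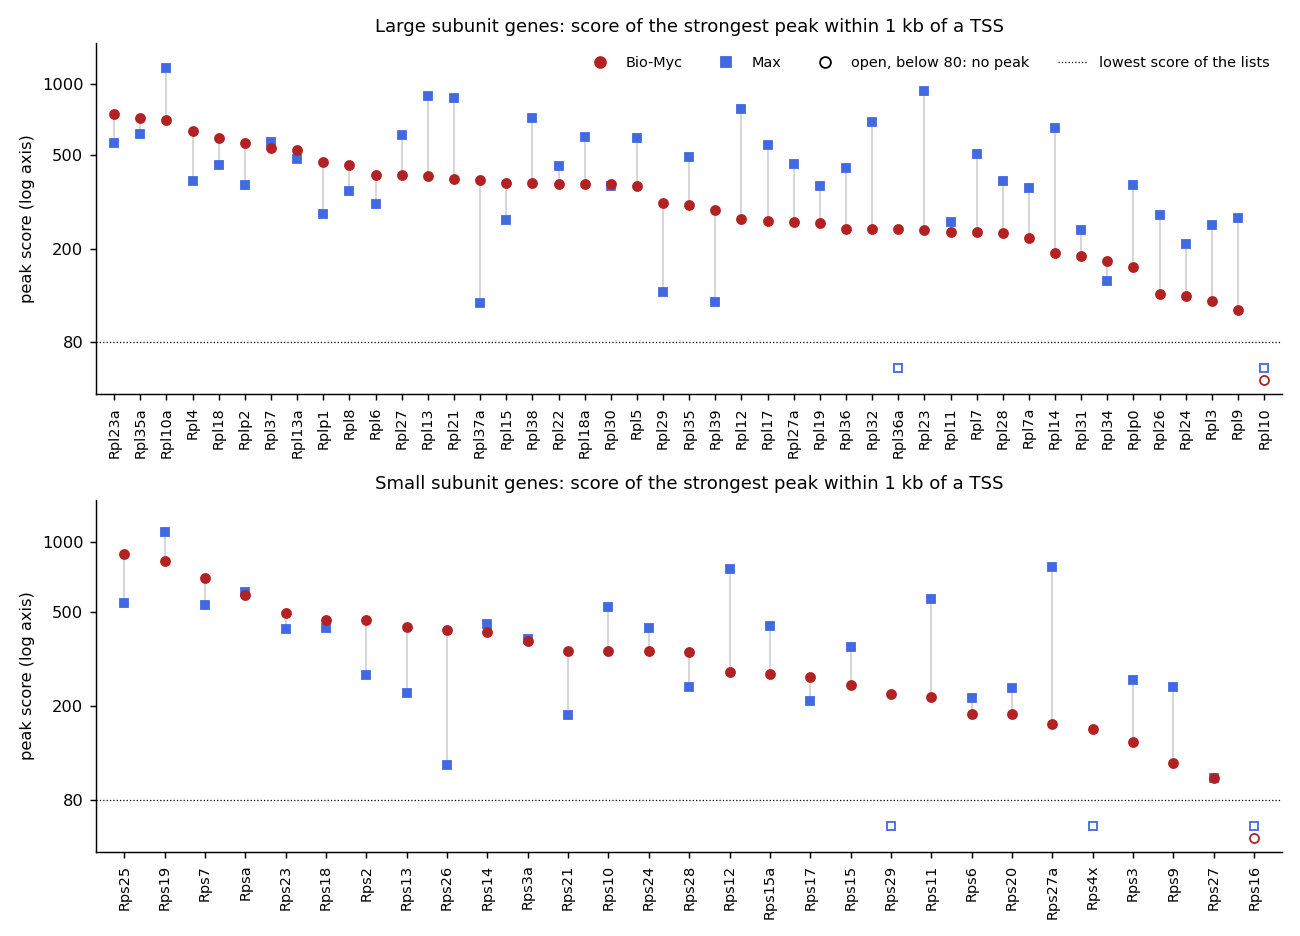
Score of the strongest Bio-Myc peak (red circles) and the strongest Max peak (blue squares) within 1 kb of a TSS for 74 canonical RP genes, on a log axis, ordered by Bio-Myc score within each subunit. Grey lines join the scores of a gene, and open symbols below the dotted line at 80 mark genes without a peak. Among the genes shown, scores run from 98.5 at Rps27 to 884 at Rps25 for Bio-Myc, and from 98.8 at Rps27 to 1166 at Rpl10a for Max.

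Several small subunit genes were among the highest of the Bio-Myc list. Rps25 (ENSMUSG00000009927.8, chromosome 9, 44215797 to 44218488, plus strand), which takes part in initiation on some viral RNAs, had scores of 884 for Bio-Myc and 551 for Max, under peaks that also covered the TSS of the neighbour Trappc4. Rps19 (ENSMUSG00000040952.9, chromosome 7, 25669390 to 25674825, plus strand), the gene most often mutated in Diamond-Blackfan anaemia, had 830 and 1101. It was high in both lists, at percentile 98.7 of each. Rps7, another gene of that disease, had 699 and 536. Rpsa, the laminin receptor precursor of the small subunit, had 596 and 609.

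The large subunit genes of highest Bio-Myc score were Rpl23a, Rpl35a, Rpl10a and Rpl4. Rpl23a (ENSMUSG00000058546.8, chromosome 11, 77994434 to 77997086, minus strand), which sits at the exit of the peptide tunnel, had a Bio-Myc score of 744 and a Max score of 563. Rpl35a, another gene of Diamond-Blackfan anaemia, had 715 and 615, and Rpl4, which lines the tunnel, 629 and 387. Rpl10a (ENSMUSG00000037805.8, chromosome 17, 28465416 to 28467977, plus strand), a protein of the stalk opposite the P stalk, had 702 and the highest Max score of the members, 1166. Rpl18 followed with 589 and 453. The strongest peaks of Rpl35a, Rpl4 and Rpl18 in both lists also covered the TSS of another coding gene. Their coding neighbours within 1 kb are Iqcg, Zwilch and Sphk2. Of the P stalk proteins, which recruit the elongation factors, Rplp2 had 564 and 372, Rplp1 468 and 281, and Rplp0, their anchor, 168 and 372. The order within the stalk thus differed between the lists, with Rplp0 lowest for Bio-Myc and level with Rplp2 for Max.

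Several genes ranked higher among the bound genes of the Max list than among those of the Bio-Myc list. Rpl23 had a Bio-Myc score of 239 and a Max score of 938, Rpl12, at the base of the P stalk, 266 and 785, Rps12 280 and 763, Rpl32 241 and 693, and Rpl14 191 and 651. Rps27a, which is made as a fusion with ubiquitin, had 168 and 777 (percentiles 61.2 and 96). Rpl13 had 408 and 893, on chromosome 8, where the Max list holds 6.34 peaks for each Bio-Myc peak against 2.44 to 3.37 on the other autosomes. Rpl21 had 393 and 874. Rpl38, which is needed for the translation of a subset of Hox mRNAs, had 378 and 716. The gap in rank was small at Rpl13 (percentiles 92.8 and 97.2), Rpl21 (92.1 and 97.1) and Rpl38 (91.5 and 94.9).

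Others ranked higher for Bio-Myc than for Max. Of those named here, Rps26 and Rpl37a were chosen for low Max scores, and Rpl29 and Rpl39 after their values were seen. Rps26, which contacts the mRNA upstream of its start codon, had a Bio-Myc score of 423 and a Max score of 112 (percentiles 93.4 and 18.4). Rpl37a had 392 and 118, Rpl29 314 and 131, and the X-linked Rpl39 290 and 118. A Bio-Myc score above the Max score was found at 26 of the 71 genes (36.6%), against 535 of 2755 other coding genes with both peaks (19.4%). The score of each list grows with the depth of its library, which is unknown, so a Bio-Myc score above a Max score does not mean stronger binding. The cause of the difference between the sets was not tested. Across genes the scores of both lists had a Spearman rho of 0.33 over the 71 canonical genes and 0.38 over the 2755 others, where points share the library and the sequence context, so these are descriptions only.

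**Figure D3:**
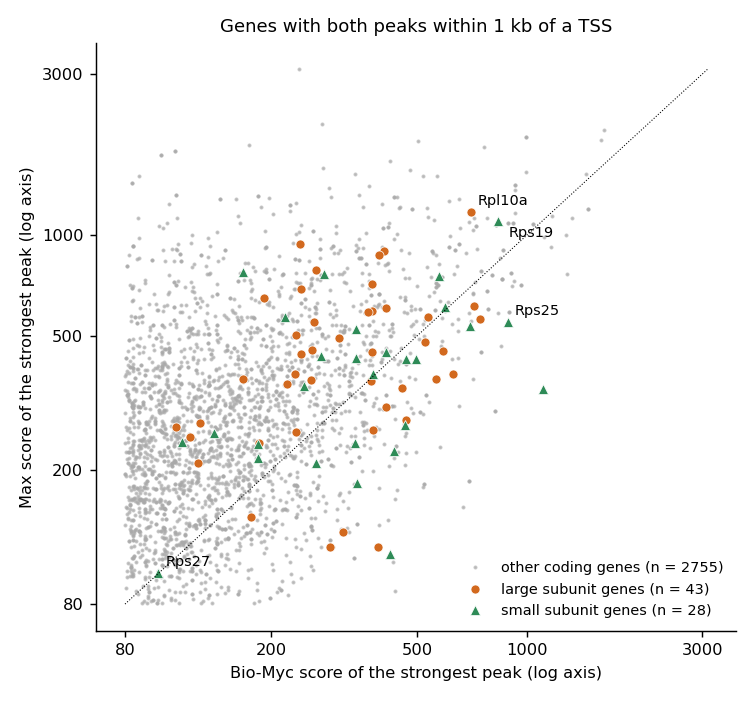
Max score against Bio-Myc score of the strongest peaks, both on log axes, for genes with both peaks: 43 large subunit genes (orange circles), 28 small subunit genes (green triangles) and 2755 other coding genes (grey points). The dotted line marks equal scores, which do not mean equal binding because the depth of the libraries is unknown. Rpl10a and Rps19 lie near the top, Rps25 below the line at the right, and Rps27 at the lower left.

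The genes with a role outside the ribosome were spread over the range. Rpl5 and Rpl11, which bind Mdm2 when ribosome assembly is disturbed, had Bio-Myc scores of 368 and 235 and Max scores of 589 and 260. Rps6, the substrate of the S6 kinases, had 185 and 217, and Rps3, which also acts in DNA repair, 140 and 257. Rpl22, which has roles in lymphocyte development, had 378 and 448. The lowest scores of the canonical genes in both lists were those of Rps27, 98.5 and 98.8, at percentiles 20.6 and 11.2. Rpl9 had 110 and 269, and Rps9 114 and 242.

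The annotation gives Rpl24 8 TSSs over 7608 bp, and separate peaks lay at each end. Over the first group of TSSs, the Bio-Myc peak had a score of 126 and the Max peak 100.2. Further downstream they had 101 and 210. RefSeq lists a gene of its own, Zbtb11, downstream of Rpl24, and the annotation does not settle to which of them the second pair, with the highest Max score counted for Rpl24, belongs. Rpl36 and Rps4x also had more than 1 Bio-Myc peak, and Rps10, Rps18 and Rps21 more than 1 Max peak.

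A peak of at least 1 list was missing at 5 canonical genes. Rps16 (ENSMUSG00000037563.8, chromosome 7, 29135671 to 29137715, plus strand) had neither, and the nearest peaks were 38.2 kb (Bio-Myc) and 38.0 kb (Max) away. Rpl10 (ENSMUSG00000008682.7, chromosome X, 71516151 to 71518474, plus strand), which joins the large subunit late in its assembly, also had neither, with the nearest peaks at 101 kb and 40.9 kb. Bio-Myc alone was found at Rps29 on chromosome 12 with a score of 225, at Rpl36a on chromosome X with 241, and at Rps4x on chromosome X with 160. The nearest Max peak was 8.99 kb from Rps29, 110 kb from Rpl36a and 488 kb from Rps4x.

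Of these 5 genes, 3 are X-linked, and the X chromosome was poor in Max peaks as a whole. It held 74 Max and 56 Bio-Myc peaks, a ratio of 1.32. Of the 4 X-linked canonical genes, Bio-Myc was found at 3 and Max at 1, Rpl39. Among 928 other X-linked coding genes, 5.28% had a Bio-Myc and 4.31% a Max peak, and 36.7% of the Bio-Myc-bound ones had Max, against 87.0% on the autosomes. On the autosomes, 71 of 72 canonical genes were bound by Bio-Myc and 70 by Max. The part of the X chromosome as a whole in the missing Max peaks was not tested.

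The 8 paralogues include autosomal relatives of X-linked subunit genes. Rpl10l on chromosome 12, an intronless relative of Rpl10, had a Bio-Myc score of 128 and a Max score of 129, both peaks at its own start and 187 kb from the next annotated TSS. Rps4y2 on chromosome 6, an intronless relative of Rps4x inside Tmtc1, had 211 and 298. Rpl36al, related to Rpl36a, had 395 and 303 under a Bio-Myc peak that also covered the TSS of Mgat2. Rpl39l, related to Rpl39, had neither peak, and the closest were at 241 kb and 22.2 kb. Rps27l, known as a p53 target, had the highest values of the paralogues, 707 and 474. Rpl22l1 had 133 and 277, and Rpl7l1 136 for Bio-Myc with no Max peak. Rpl3l, a form of striated muscle, had no peak in the window, with the nearest at 7.09 kb for Bio-Myc and 3.05 kb for Max.

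Peaks at canonical genes were centred near an annotated TSS, which was not always the outermost one. Within 1 kb of the outermost TSS alone, Bio-Myc was found at 71 of 76 genes and Max at 68, against 13.3% and 32% of other coding genes. All 74 Bio-Myc and 71 Max centres lay within 500 bp of a TSS, against 87.4% and 86.1% at other bound coding genes. Distances were taken to the nearest annotated TSS. Canonical genes have more of these, a median of 4 against 2, which by itself shortens the distances and changes which TSS is nearest. The Bio-Myc centre was downstream of the nearest TSS in 49 genes (66.2%), against 51.7%, and the Max centre in 52 (73.2%), against 52.5%. The mitochondrial RP genes shared part of this, with 97% of Bio-Myc and 98.2% of Max centres within 500 bp of a TSS. Their centres were downstream in 66.7% for Bio-Myc and 55.4% for Max. Peaks were wider than elsewhere, with a median of 1352 bp against 1066 bp (1065.5) for Bio-Myc and 1110 bp against 883 bp for Max, and wider peaks had higher scores (Spearman rho 0.31 between Bio-Myc score and width over the 71 genes, as a description). In all 71 genes with both, a Bio-Myc and a Max peak overlapped, and the centres of the strongest peaks were a median of 100 bp apart. At 12 genes in each list, the strongest peak also covered the TSS of another coding gene. In both lists these were Rpl12, Rpl15, Rpl18, Rpl35a, Rpl4, Rpl7a, Rpl9, Rps18, Rps25, Rps27, Rps27a and Rps28.

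**Figure D4:**
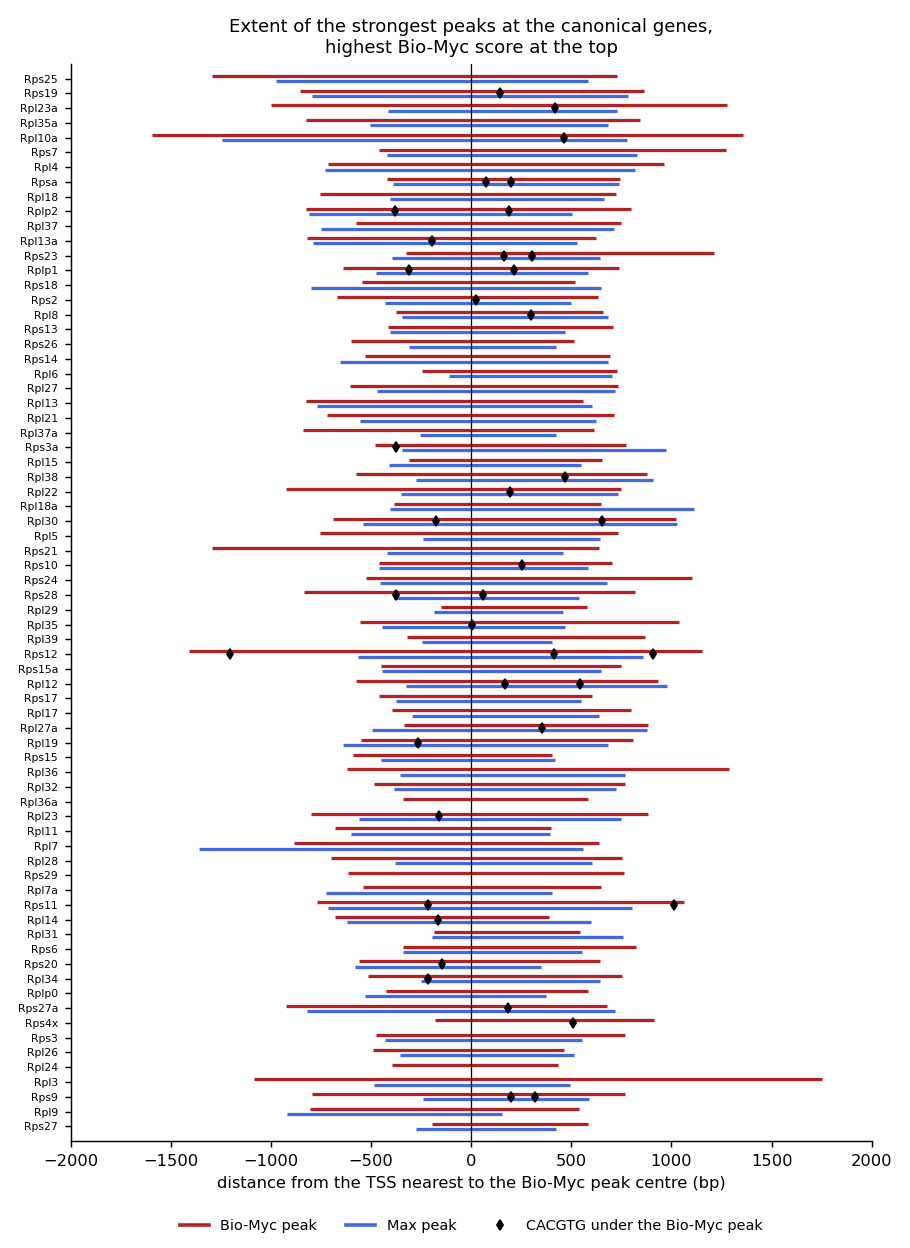
Extent of the strongest Bio-Myc (red) and Max peak (blue) at 72 Bio-Myc-bound canonical genes, in bp from the TSS nearest to the Bio-Myc centre, with CACGTG under the Bio-Myc peak as black diamonds. Genes are ordered by Bio-Myc score. Every red bar spans the TSS, the 3 rows without a blue bar are Rpl36a, Rps29 and Rps4x, and the strongest Max peak of Rpl24 lies outside the axis at its second group of TSSs.

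High scores at RP genes often came without CACGTG under the peak. It was present under the strongest Bio-Myc peak of 30 of the 74 canonical genes (40.5%, 30.1 to 51.9%), against 49.5% of other bound coding genes, and under the strongest Max peak of 29 of 71 (40.8%, 30.2 to 52.5%), against 37.3%. Mitochondrial RP genes had it less often, at 6 of 33 with Bio-Myc (18.2%, 8.61 to 34.4%) and 13 of 56 with Max (23.2%, 14.1 to 35.8%). Over all members with a Max peak the share was 39.0%, and its order against the other genes turned in the central part of the peaks and at a p-value of 1e-15 or lower. The difference for Bio-Myc was larger among high scores. Of the 58 canonical genes in the upper 25% of Bio-Myc scores, 23 held a CACGTG (39.7%, 28.1 to 52.5%), against 64.5% (61.2 to 67.8%) of the 798 other genes there. For Max it was 46.8% (33.3 to 60.8%) against 60.4% (58.2 to 62.6%), where the intervals overlap. The median Bio-Myc score was 359 with and 302 without CACGTG at canonical genes, and 163 and 125 at other genes. The 30 genes held 41 copies of the motif, 19 upstream and 22 downstream of the nearest TSS, 37 of them within 500 bp of it. A Max peak covered 36 of the 41. The median copy was offset by 280 bp, to either side, from the middle of its Bio-Myc peak. Such positions were not counted at other bound genes. All these Bio-Myc peaks were centred within 500 bp of a TSS, and they overlapped a Max peak wherever both lists had one. These counts alone therefore do not show that the motif favours the TSS or the Max peaks.

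**Figure D5:**
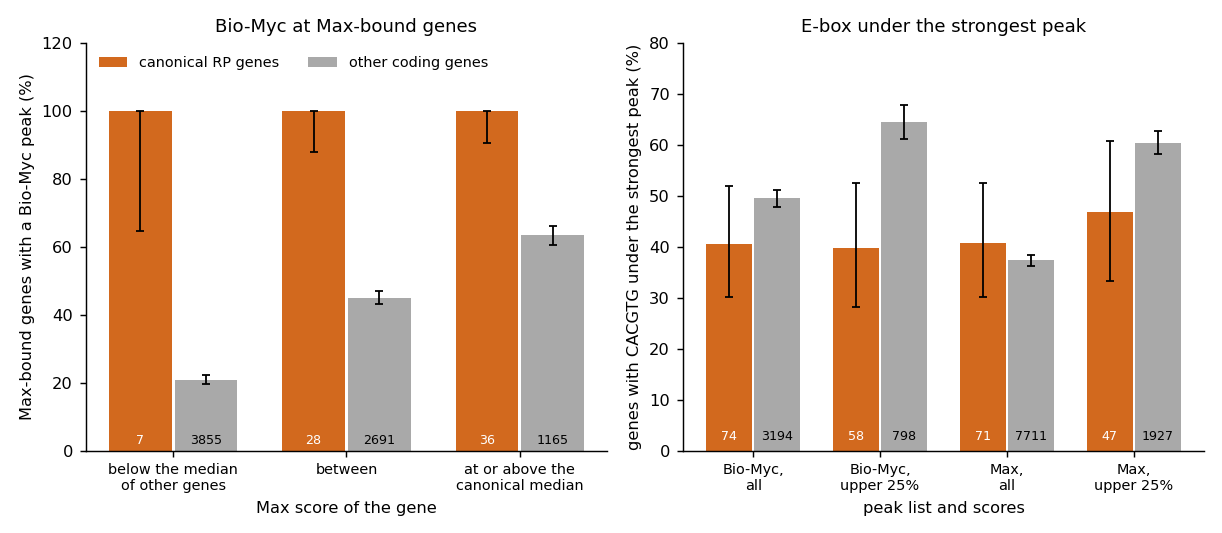
Left, share of Max-bound genes that also had a Bio-Myc peak, in percent, by Max score. Right, share of genes with CACGTG under their strongest peak, for all bound genes and for scores in the upper 25%. Canonical RP genes are orange and other coding genes grey, error bars are 95% Wilson intervals, and the numbers in the bars are genes. The orange bars stay at 100% on the left, as only the 2 canonical genes with neither peak lacked Bio-Myc. On the right they lie below the grey ones for high scores, 39.7% against 64.5% for Bio-Myc.

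The E-Boxes of the 4 highest-scoring Bio-Myc members that hold one are shown on the strand of the gene, with CACGTG in capitals. Rps19 (chr7:25669800-25669829) has it in an exon with UTR sequence, 18 bp upstream of the nearest of its TSSs, and Rpl23a (chr11:77996637-77996696, minus strand) in an intron, 87 bp upstream of the nearest TSS. In Rpl10a (chr17:28466657-28466716) it lies 463 bp downstream of the nearest TSS, in an exon of a transcript without a coding sequence. Rpsa has copies 75 and 201 bp downstream of the nearest TSS, both in an intron (chr9:120036930-120036989 and chr9:120037056-120037115).
Rps19: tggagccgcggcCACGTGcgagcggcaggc
Rpl23a: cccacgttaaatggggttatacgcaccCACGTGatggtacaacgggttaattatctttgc
Rpl10a: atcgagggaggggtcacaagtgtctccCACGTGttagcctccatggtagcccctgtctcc
Rpsa, first copy: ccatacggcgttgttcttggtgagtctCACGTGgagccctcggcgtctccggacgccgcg
Rpsa, second copy: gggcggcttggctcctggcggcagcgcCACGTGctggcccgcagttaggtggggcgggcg
The bases flanking the hexamer differ between the genes, and only the stretch of Rps19 lies wholly in transcribed UTR sequence.

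Other sequence features of these promoters were counted on both strands from 200 bases upstream to 100 downstream of the outermost TSS. CCGGAAG, a core bound by Ets factors such as GABP, was present at 26 of 76 canonical genes (34.2%), 40.3% of mitochondrial RP genes and 11.1% of the other coding genes, or 21.9% of those with a Bio-Myc peak. AAGATGGC, a YY1 sequence, was present at 6 canonical genes (7.89%), 16.9% of mitochondrial RP genes, 3.63% of the other coding genes and 7.11% of those with a Bio-Myc peak. Canonical genes with CCGGAAG had a median Bio-Myc score of 377 and those without 298, while for Max the order was the opposite, 369.8 and 439. In each list the ranges of the genes with and without it overlapped widely. CACGTG within 500 bp of the outermost TSS was found in 28.9% of canonical genes, above the 17.0% of all other coding genes and below the 35.3% of those with a Bio-Myc peak. The median CpG ratio (observed over expected) was 0.807, against 0.549 of all other coding genes and 0.78 of the Bio-Myc-bound ones. The median GC content within 500 bp was 56.9%, between the 54.7% of all other coding genes and the 59.7% of the Bio-Myc-bound ones.

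For 2 canonical genes of high Bio-Myc score that hold CCGGAAG and no CACGTG under the peak, chosen after their values were seen, the stretch around the motif is shown, with CCGGAAG or its reverse complement in capitals. They are Rps25 (chr9:44215697-44215757) and Rps7 (chr12:29320799-29320859, minus strand). The motif lay 70 and 11 bp upstream of the nearest TSS.
Rps25: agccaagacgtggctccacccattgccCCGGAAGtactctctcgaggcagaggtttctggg
Rps7: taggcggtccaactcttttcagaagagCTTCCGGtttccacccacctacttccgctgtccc
In Rps25 it reads along the strand of the gene, and in Rps7 on the opposite strand.

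A TOP start, here a C followed by at least 5 pyrimidines within 10 bp of a TSS, was seen at the outermost TSS of 19 canonical genes (25%), against 19.1% of other coding genes. The copies named -ps had 24.5% and the mitochondrial RP genes 22.1%. A match within 10 bp need not be the first base of an mRNA, so this does not count mRNAs that begin with the tract. At any TSS it was seen in 65.8% against 37.2%, a share that grows with the number of TSSs. Among genes with 1 TSS it was seen in 6 of 18 canonical genes (33.3%) and in 17.7% of 9782 others. A snoRNA gene lay inside 30 of the 76 canonical genes (39.5%), against 1.07% of the other coding genes. The 28 snoRNA hosts with peaks had a median Bio-Myc score of 376, against 310 for 46 other canonical genes, and a median Max score of 516, against 372. The ranges of both groups overlapped widely.

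Ribosomal proteins under other symbols and further genes with TOP mRNAs followed the canonical RP genes in part. Gnb2l1, the Rack1 protein of the small subunit, had a Bio-Myc score of 614 and a Max score of 989.6. Fau, a ubiquitin-like fusion of the small subunit, had a Max peak alone with 212. Of 16 other genes with TOP mRNAs, 13 had a Bio-Myc and 14 a Max peak, with median scores of 330 and 387. Most act in translation, but the set also holds Npm1, Hnrnpa1 and Nap1l1, which are not part of its machinery. The nucleolar chaperone Npm1 had 614 and 1256, and the RNA-binding protein Hnrnpa1 804 and 758. Cbx5, which is not in this set, had the same scores as Hnrnpa1, so these peaks cannot be credited to Hnrnpa1 alone. The elongation factors Eef2 and Eef1a1 had 235 and 1241, and 378 and 411. Btf3, of the nascent polypeptide-associated complex, had 431 and 107. Of the initiation factor subunits, Eif3e had 356 and 383, Eif3h a Max peak alone with 89.8, and Eif3f neither, as was also found for the histone chaperone Nap1l1.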

How the data were processed

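The authors aligned reads to mm9 using Bowtie 0.12.7, keeping those with a single hit and 2 mismatches at most. Duplicate reads were merged, and MACS 1.4.1 called peaks over the mock or IgG ChIP at 1e-08. CASAVA 1.8 is also named in the submitters' processing notes. The deposited score of a peak (10 times −log10 of its p-value) grows with depth, which the lists do not hold, so scores were ranked within a list. Counts and correlations that set the scores of both lists against each other are descriptions only. Unique mapping leaves out repeated sequence.

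Peaks (3962 Bio-Myc, 11570 Max) were matched by 1 bp or more to the region within 1 kb of any TSS of GENCODE M1, with the strongest peak taken per gene. Shares have 95% Wilson intervals. No test was possible with 1 library per ChIP. The members, gene lists and comparisons were chosen with earlier results of these data known. Named genes were the 12 highest scores and the 3 lowest of each list, genes lacking a peak, the paralogues and members with a textbook role; Rpl29 and Rpl39 were added after their values were seen, and a few genes under this rule are counted but not reported here by name. Sequence was read from mm9, motifs on both strands, and coordinates are 1-based. The steps were tested on simulated data. Python 3.11.15, numpy 2.4.6, scipy 1.17.1, pysam 0.24.0, matplotlib 3.10.9 and samtools 1.23.1 were used. Other windows, stricter p-values, other overlap and TSS rules, the canonical genes alone and leaving out chromosome 8 or shared promoters were tried as alternatives. Results for the canonical genes under these, leaving out chromosome X, and a Max list of the same length as the Bio-Myc list were added after seeing the data.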

Additional observations from a re-analysis of the deposited data

How the results depend on the processing

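Of 89 values under alternatives, 69 moved by less than their interval, and the other 20 are given here. Restricting all members to the canonical genes raised the shares to 97.4% (Bio-Myc), 93.4% (Max) and 93.4% (both). At a p-value of 1e-15 or lower, 88.2% of canonical genes had a Bio-Myc peak and 77.6% both, and 46.0% of all members both. At 1e-20 or lower, the canonical shares were 77.6% for Bio-Myc, 84.2% for Max and 68.4% for both, against 4.17%, 16.8% and 3.46% of other coding genes, and all members stood at 46.0% for Bio-Myc and 40.9% for both. Without chromosome X, the canonical share was 97.2% for Max and 97.2% for both. With as many Max as Bio-Myc peaks, it was 80.3% for Max, against 15.3%. The share of members with CACGTG under the peak was 22.2% (Bio-Myc) and 27.3% (Max) in the central 500 bp, 8.64% and 11.7% in the central 200 bp, and 70.4% and 71.4% when CACGCG also counted, against 34.4%, 28.2%, 17.4%, 16.9%, 78.1% and 68.8% of other bound coding genes in the same order. For Max, members were thus above the other genes over whole peaks and with CACGCG, and below them in the centre and at 1e-15 or lower (40% against 45.7%). No paired analysis was possible because each ChIP has 1 library. The unknown depth limits what a missing peak means: at Rps16, Rpl10 and the Max-negative genes, binding below the limit of the lists was not detectable.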
